A study of Saccharomyces cerevisiae with 13 samples.

Results

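The interior of yeast chromosome XII, meaning every called DNA break region (peak) on that chromosome that does not reach into the outer 20 kb at either end, was described around the ribosomal DNA (rDNA) that it carries. The rule took 299 of the 3709 peaks in 13 lists, and 195 of these lay in the 12 lists made from cells without an added enzyme. Another 10 peaks on chromosome XII touched the outer 20 kb and were left out. The rDNA was taken from the first to the last rDNA gene (RDN) of the RefSeq R64 gene table, at chromosome XII 451575 to 489469 of the sacCer3 build. Whole repeat units fill only the part from 451575 to 468931, which is 17.357 of the 37.895 kb. Beyond them lie single RDN genes among other genes, such as ASP3-1 to ASP3-4. Of the 17 protein-coding genes within the limits used, 2 lie in the whole units. The limits used left a left segment of 431.574 kb with 205 protein-coding genes and a right segment of 568.429 kb with 284. A peak was given to the segment that held its midpoint.

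The lists come from Break-Seq, in which the ends of broken DNA are labelled with biotin in agarose plugs, captured and sequenced. All cells were budding yeast held in G1 with 3 µM alpha factor and, except for the G1 material, then given 200 mM hydroxyurea (HU), which blocks ribonucleotide reductase and so depletes the precursors of DNA, over 1 h. Some were then moved to medium without HU for 1 h (recovery, R). The strains were WFA72 (MEC1), called WT here, and WFA73 (mec1-1), called mec1, which carries a mutant allele of the replication checkpoint kinase gene MEC1.

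There were 3 mec1 HU lists (experiments A, B and Control) and 2 WT HU lists (C and Control) in which peaks were called with no comparison library (called alone below). In the 2 mec1 R lists (A, B) and the 1 WT R list (C) peaks of the recovery library were called over the HU library from that same experiment, so a peak there marks signal above that at HU. The Control experiment also gave each strain 1 list of HU over mock labelling without biotin and 1 of HU over G1. The titles of these 4 samples name mock or G1 material and their descriptions name HU called against it. They were read by the descriptions, and so share an HU library with the Control list called alone. A final list, from mec1 G1 DNA of experiment A that was cut with the enzyme BamHI, served as a check of positions. Its peaks covered 14.1% of the bases of the chromosome XII interior and overlapped between 22.2% (mec1 HU A) and 60.6% (mec1 HU over mock) of the peaks of a list. A share of bases and a share of peaks are different measures, since a wider peak is overlapped more easily. Nothing in the labels says that lists of a group came from separate colonies, and the mec1-1 and MEC1 strains were 1 strain each, so the spread between lists may be technical. The lists hold no read counts, so sequencing depth is unknown and a longer list can come from a deeper library. Each peak carries the authors' score, of unstated scale, which was used only to rank peaks within a list.

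The rDNA of budding yeast is a tandem array on chromosome XII in which each unit holds a 35S precursor gene, read by RNA polymerase I, and a 5S gene, read by RNA polymerase III. The spacer around the 5S gene holds a replication origin and a replication fork barrier bound by Fob1, which stops forks moving against 35S transcription. The reference assembly holds only a few of the many units of a cell, so reads from all units can be placed only on those few copies. How reads that match several copies were handled is not given. The centromere lies in the left segment, so the rDNA interrupts the long arm of the chromosome.

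Within the rDNA, the lists of experiments A, B and C had a peak in the spacer at the 5S gene RDN5-1, and the Control lists had none. The peak ran from 459089 to 460753 in mec1 A, from 459329 to 460877 in mec1 B and from 458959 to 460753 in WT C. Its score was the highest in its list in all 3, shared with no other peak in mec1 A and WT C and equal for 3 peaks of mec1 B. What part the number of rDNA units has in these scores was not tested. The 3 peaks thus lay on nearly the same stretch in both strains, with a shared part from 459329 to 460753. The spacer between the 35S genes RDN37-1 and RDN37-2 measures 2279 bp in the table, and the peaks covered 1623, 1383 and 1753 bp of it in mec1 A, mec1 B and WT C. They began 656, 896 and 526 bp away from RDN37-1, left that gene free, and ran 42, 166 and 42 bp into the end of RDN37-2 where its transcript terminates. Apart from the edge peaks described below, no list had a peak elsewhere in the rDNA, including the other 5S genes. Of the 5S genes, only RDN5-1 lies between 35S genes in the reference. The others lack that whole spacer, so their lack of a peak cannot be compared with RDN5-1.

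The rDNA peak was in 3 of 5 HU lists called alone, and it was present by experiment rather than by strain. It was found in mec1 A, mec1 B and WT C and not in mec1 Control, WT Control or any of the 4 lists called over mock or G1. It was also in no R list, and R lists hold only signal above that at HU. The BamHI list, which came from G1 cells of experiment A, had no peak there. The submitters' processing notes name Bowtie2, BWA 0.6.2 and MACS 1.4.1 for experiments A, B and C and name BWA for the Control samples. Experiment and processing cannot be told apart here.

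Just left of the rDNA, a region was called in mec1 A and B at HU and again in both mec1 R lists, and in no WT list. The HU peaks ran from 448219 to 450952 in A (rank 5 of 138 by score) and from 448955 to 451261 in B (rank 35 of 151). The R peaks ran from 448345 to 451608 in A (rank 58 of 198) and from 448331 to 451179 in B, where the score was the highest of the list and equal for 10 peaks. The region therefore stood above its own HU level after recovery in both experiments. The tRNA gene YNCL0009C lay under all but the B peak at HU, and the A peak at HU also touched RNH203, which encodes a subunit of RNase H2. The peaks stopped 623 bp (A) and 314 bp (B) short of the rDNA at HU. In recovery, the A peak reached 34 bp into it and the B peak stopped 396 bp short. The mec1 Control lists had no peak here.

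Just right of the rDNA the picture was the opposite, with a peak in the Control lists and in none of experiments A, B and C at HU or R. It ran from 489604 to 490659 in mec1 Control (rank 34 of 265) and from 489753 to 490882 in WT Control, where its score was the highest of 43 peaks. It covers the small open reading frames YLR162W and RRT15. In WT it was also called over mock (rank 18 of 60) and over G1 (rank 11 of 90), and in mec1 it was called in neither. The BamHI list also had a peak here, from 489610 to 490732 (rank 1034 of 1296). What part G1 signal has in the HU peaks here was not tested. The 2 edges of the rDNA differ in kind. The left edge, at 451575, is the end of a whole repeat unit. The right edge, at 489469, is the end of the single gene RDN5-6, and the whole units end at 468931. The right edge peak thus does not border a whole unit.

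**Figure D1:**
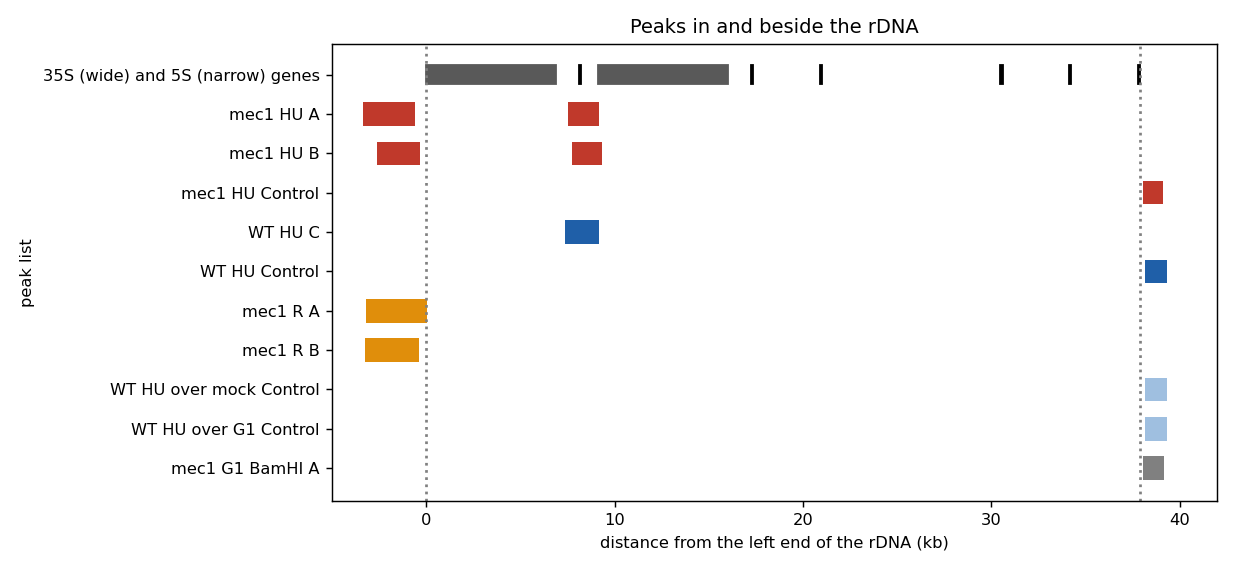
Peaks in and beside the rDNA by list, plotted to scale against distance from its left end in kb. Each bar is 1 peak, colours mark strain and time (red mec1 HU, blue WT HU, orange mec1 R, pale blue WT HU over mock or G1, grey BamHI), and the top line shows the 35S and 5S genes of the gene table. The spacer peak is in mec1 A, mec1 B and WT C, the left edge peak in mec1 A and B at HU and R, and the right edge peak in the Control and BamHI lists.

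In the HU lists called alone, the share of peaks on chromosome XII along the whole interior lay near its share of the sequence. It makes up 9.0892% of the interior of all 16 chromosomes and held 8.78% ± 1.39 (SD, n = 3) of the interior peaks in mec1 HU and 10.1% ± 0.181 (n = 2) in WT HU. The single lists gave 7.63% (A), 8.40% (B) and 10.3% (Control) in mec1 and 10.0% (C) and 10.3% (Control) in WT, so the strains overlapped in range. The difference of -1.34 percentage points had p = 0.6 by an exact two-sided permutation test of 3 lists against 2, with a smallest possible p of 0.2 and an adjusted p of 0.96 over the 6 tests made. It was -0.765 without mec1 A, -2.12 without mec1 Control and -3.57 with a score of at least 100. Peak density on the interior of chromosome XII exceeded that of the other 15 chromosomes in 3 of 5 HU lists called alone, by 0.0291 peaks per 100 kb on average (exact permutation test by sign flips, two-sided p = 0.6875, adjusted p = 0.96, smallest possible p 0.0625). By mean density, chromosome XII ranked 11 of 16 in mec1 HU, 8 in WT HU, 11 in mec1 R and 7 in WT R. Called over mock and over G1, the WT Control library had larger shares on chromosome XII, 19.0% (11 of 58 interior peaks) and 12.5% (11 of 88). The mec1 Control library had 7.86% and 8.42%.

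**Figure D2:**
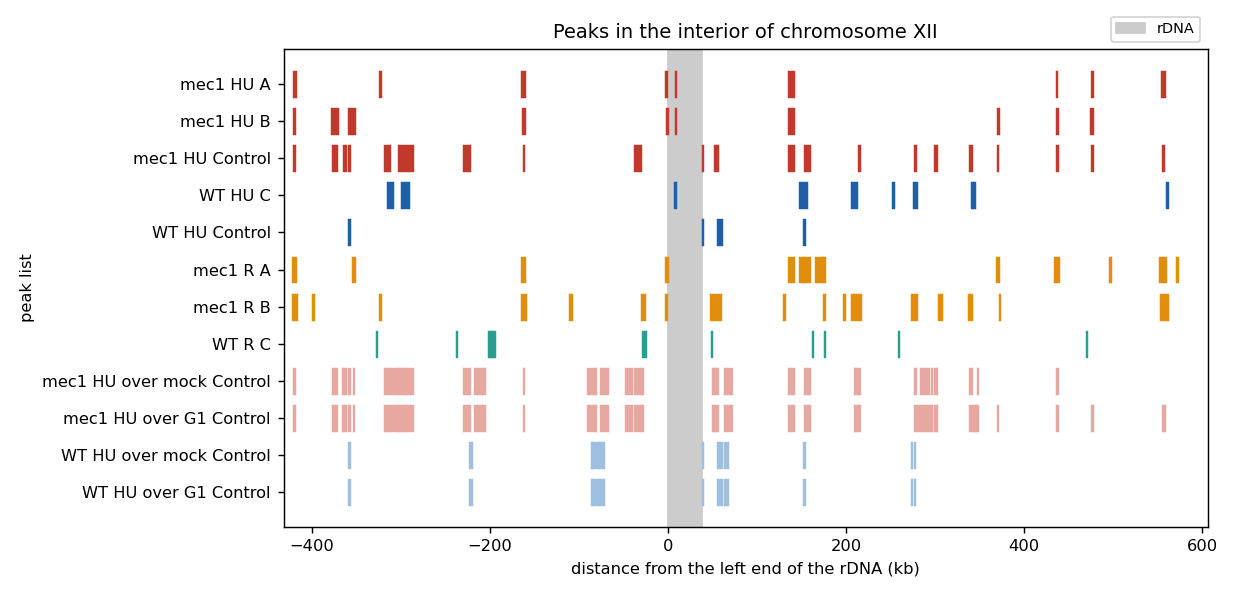
Every peak of the chromosome XII interior in the 12 lists from cells, against distance from the left end of the rDNA in kb (rDNA shaded grey). Bars are drawn to scale with a thin outline. Columns of bars mark regions called again and again, and the wide empty bands mark stretches with no peak in any list.

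At HU the mec1 lists had more peaks than the WT lists left of the rDNA. The left segment held 4, 6 and 10 peaks in mec1 A, B and Control and 2 and 1 peaks in WT C and Control. The right segment held 4, 4 and 12 peaks in the mec1 lists and 7 and 3 in the WT lists. Left of the rDNA every mec1 list thus lay above both WT lists, and right of it the strains overlapped. The same order held in the interior of the other 15 chromosomes, where the mec1 lists had 1.05, 1.16 and 1.84 peaks per 100 kb and the WT lists 0.867 and 0.337, so it is not particular to the left segment. Per 100 kb, the left segment had 1.54 ± 0.708 peaks in mec1 (SD, n = 3) and 0.348 ± 0.164 in WT (n = 2). That difference of 1.20 had an exact permutation p of 0.2 (two-sided), the smallest the design allows, and an adjusted p of 0.6. By percent of bases covered the strains overlapped on the left, with 2.96% in mec1 A and 3.59% in WT C (exact permutation p = 0.4). The right segment had 1.17 ± 0.813 peaks per 100 kb in mec1 and 0.880 ± 0.498 in WT, a difference of 0.293 with an exact permutation p of 0.8 (adjusted p = 0.96). That difference turned to -0.176 without mec1 Control and to -0.0586 without WT Control.

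Within lists, right minus left density was below 0 in every mec1 HU list and above 0 in both WT HU lists called alone. It was -0.223, -0.687 and -0.206 peaks per 100 kb in mec1 A, B and Control. It was 0.768 and 0.296 in WT C and Control. The strains differed by -0.904 peaks per 100 kb (exact permutation p = 0.2, two-sided, the smallest possible; adjusted p = 0.6). Taken over the 5 lists, the density right minus left was -0.0103 (exact permutation test by sign flips, p = 1, adjusted p = 1), with 2 of 5 lists above 0. The right segment makes up 56.8427% of both segments by length and held 48.2% ± 7.44 of their peaks in mec1 HU and 76.4% ± 1.96 in WT HU.

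The direction in WT depended on how the peaks were called. Over mock and over G1 the WT Control library gave 5 peaks left and 6 right of the rDNA, a right minus left density of -0.103 per 100 kb in both, against 0.296 when called alone. The mec1 Control library kept its direction, at -1.94 over mock and -0.532 over G1. The WT lists are short, and the 4 peaks of WT Control called alone were all present with the same coordinates among the 11 of its other lists. The 4 added WT peaks left of the rDNA covered AFB1, NFG1 and TRX1 (228765 to 231743), the RNA gene SNR6 (365344 to 366537), and in the remaining pair AHP1, a thioredoxin peroxidase gene, CCW12, which encodes a cell wall mannoprotein, HOG1, the osmotic stress kinase gene, and AVL9 and CFT2. The widest, from 366864 to 374153, was rank 2 of 60 over mock and tied for the highest score of 90 over G1.

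**Figure D3:**
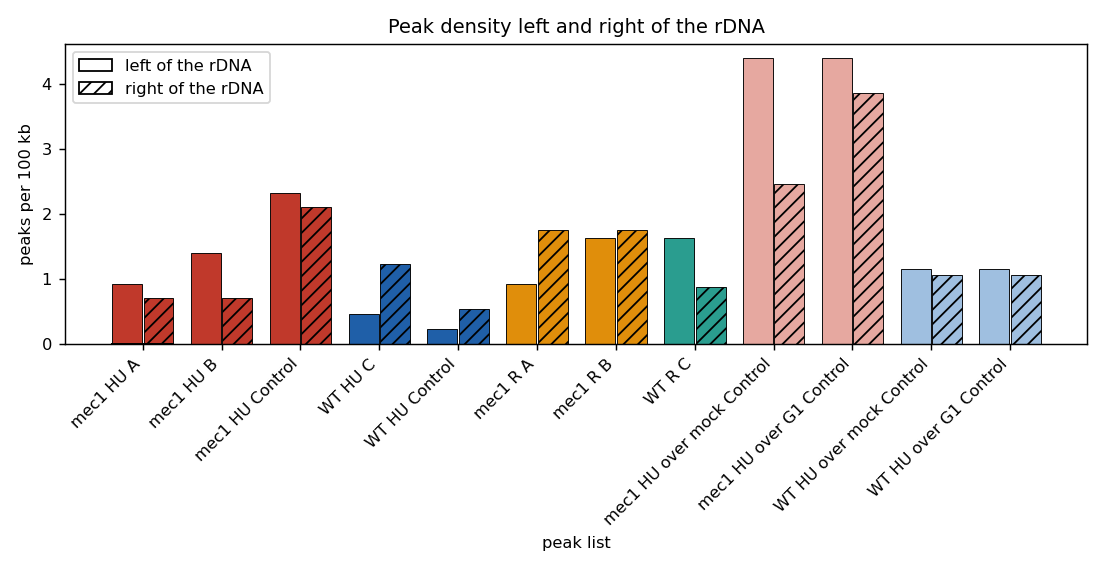
Peaks per 100 kb left (plain bars) and right (hatched bars) of the rDNA in each of the 12 lists from cells. The plain bar is the taller of the pair in the 3 mec1 HU lists and the hatched bar in the 2 WT HU lists called alone, while the WT lists over mock and G1 stand at 1.16 left and 1.06 right.

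Peaks on the left were wider in the Control mec1 library. Of its 10 left peaks, 6 spanned 5000 bp or more, against 2 of 12 on the right. Median widths were 5917 bp left and 2785.5 bp right, with 3240 bp in the rest of the interior. The wide left peaks lay at GPI13, at MMM1 and SPO75, at DNM1 and NOC3, at SSL1 and NSE1, at COX12 and AFB1, and at SLX4 and NHA1. SLX4 encodes a scaffold of structure-specific nucleases, NSE1 a subunit of the Smc5/6 complex and NOC3 a protein of ribosome assembly and replication initiation. Called over mock, the same library covered 23.9% of the left and 10.2% of the right segment. Experiments A and B did not show the same, with 0 of 4 and 1 of 6 left peaks and 2 of 4 and 1 of 4 right peaks of that width. In WT C both left peaks were that wide (7224 and 8254 bp), each overlapping wide mec1 Control peaks, over MMM1 and ORC3 in 1 case and NOC3 and SSL1 in the other. In the rest of the interior the median width in WT C was 5150.5 bp. Such widths are thus not particular to the left segment in WT C. ORC3 encodes a subunit of the origin recognition complex. The width limit was chosen after the widths had been seen.

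In recovery more of the mec1 peaks, and fewer of the WT peaks, lay right of the rDNA than at HU. In mec1 R the left segment held 4 (A) and 7 (B) peaks and the right segment 10 in each. The right share was 71.4% in A and 58.8% in B, or 65.1% ± 8.91 (SD, n = 2), against 50% and 40% at HU in the same experiments. It was thus higher by 21.4 percentage points in A and 18.8 in B. Over all 3 mec1 HU lists and both R lists the difference was 16.9 points, and 10.6 without the R list of A. In WT C the right share went from 77.8% at HU to 41.7% in R, with 7 peaks left and 5 right, a change of -36.1 points. Counts of 8 to 17 peaks lie behind each share, with no test for 1 WT list. R peaks mark signal above HU, so the shares of R and HU lists are not levels of the same measure.

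At HU, 5 regions of the chromosome recurred in every mec1 list. Of 26 merged regions in the mec1 HU lists, these 5 (19.2%) were present in all 3, and over the interior of all chromosomes the share was 15.3% (45 of 295). The 5 regions lay over YCT1 and over EMP46 with GAL2 on the left, and over BUR2 with ADY4, SMC6 with IKI3 and SFP1 with SEI1 on the right. None of the 5 was overlapped by a WT HU peak, where 84.4% of the 45 regions of all chromosomes (38) were not. Without mec1 A, 8 regions were in both other mec1 lists. Protein-coding genes overlapped in all 3 mec1 HU lists numbered 11 of 506 (2.17%), against 1.57% of the 5750 in the interior of all chromosomes.

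The BUR2 region had the best ranks of the 5 in A and B, and in Control YCT1 and SFP1 ranked higher. Its peaks ran from 586450 to 593226 in A (rank 4 of 138), from 586626 to 593051 in B (rank 4 of 151) and from 586305 to 593136 in Control (rank 42 of 265). The 3 peaks had nearly the same ends. It holds UCC1, which encodes an F-box protein, YLR225C, BUR2, the cyclin of the Bur1 transcription kinase, ADY4, a gene for a spindle pole body protein of meiosis, and the tRNA gene YNCL0032C. It was called again over mock and over G1, in mec1 R A (586284 to 593230, rank 172 of 198) and not in mec1 R B.

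YCT1 and GAL2 encode plasma membrane transporters, of cysteine and of galactose. At YCT1 the HU peaks ran from 30339 to 34388 in A (rank 21 of 138), from 30389 to 32979 in B (rank 34 of 151) and from 30622 to 32658 in Control (rank 18 of 265). At GAL2 they ran from 287126 to 290734 in A (rank 26), from 287983 to 290637 in B (rank 32) and from 288486 to 290449 in Control (rank 92). In each region the Control peak was the narrowest and lay inside both others. The stretch common to the 3 lists at GAL2 covers EMP46, a cargo receptor gene of the secretory pathway, and the first part of GAL2. Only the A peak at HU reached SIC1, which encodes an inhibitor of the S phase cyclin kinase.

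SMC6 encodes a subunit of the Smc5/6 complex, which acts in DNA repair and in rDNA maintenance, and IKI3 a subunit of Elongator. The SMC6 peaks ran from 887037 to 889007 in A (rank 125 of 138), from 886989 to 890168 in B (rank 73 of 151) and from 887447 to 889450 in Control (rank 155 of 265), over the end of SMC6 and the end of IKI3, which is read towards it. SFP1 encodes an activator of ribosomal protein genes and SEI1 the lipid droplet protein seipin. Their peaks ran from 926554 to 928969 in A (rank 23), from 925746 to 929645 in B (rank 69) and from 926382 to 929107 in Control (rank 32). SFP1 ranked above SMC6 in each list, by only a few places in B. The SFP1 peak of Control was called over G1 and not over mock, so 4 of the 5 regions stand with the list called over mock in place of the list called alone. Likewise the Control peaks at CIS1 and at TSR2 with ECM30 were called over G1 and not over mock. The peak at the right edge of the rDNA was called over neither, and the other 18 of 22 were in all 3 mec1 Control lists.

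The 2 WT HU lists shared 1 of 13 merged regions (7.69%), and the share over all chromosomes was 11.2%. It lay at CDC42, a gene of cell polarity, and the tRNA gene YNCL0033C. The peak ran from 599063 to 608062 in C (rank 96 of 103) and from 603716 to 605741 in Control (rank 36 of 43), so it ranked low in both. CDC42 was the 1 protein-coding gene of 506 overlapped in both WT HU lists, a share of 0.198% against 0.435% over all chromosomes. In mec1 Control a peak that overlapped both WT peaks ran from 605030 to 611018 (rank 23 of 265). It lay over YNCL0033C, the telomerase gene EST1 and the topoisomerase gene TOP3, and not over CDC42.

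All 4 peaks of WT Control on chromosome XII overlapped a peak of mec1 Control, at YNCL0001W, at the right edge of the rDNA, at CBF5 and at YNCL0033C. Elsewhere in the interior 19 of 35 WT Control peaks did so (54.3%). With mec1 A and B, WT Control shared 0 and 1 of its 4 peaks, and in the rest of the interior 8.57% and 5.71%. Of the 10 WT C peaks, 5 overlapped mec1 Control, and 1 overlapped WT Control, with 50% and 14.4% in the rest. These counts are small, and the lists were not tested against each other.

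In recovery, both mec1 R lists shared 6 of 25 merged regions (24%), near the 27.8% over all chromosomes. These were YCT1, SIC1 to GAL2 and the left edge of the rDNA on the left, and MAP1 to ERF2, a stretch beside CIS1 and IMD3 to ECM30 on the right. Protein-coding genes overlapped in both numbered 12 of 506 (2.37%), against 3.74% over all chromosomes. At YCT1 the R peaks ran from 29680 to 33417 in A (rank 86 of 198) and from 29685 to 35473 in B (rank 38 of 209). At SIC1 to GAL2 they ran from 287198 to 291050 in A (rank 36) and from 286691 to 292536 in B (rank 22). These places were thus called both at HU and above HU in R, and SIC1 was reached in both R lists.

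None of the 3 R regions shared on the right had an HU peak in both mec1 A and mec1 B. MAP1, CDD1 and ERF2, genes for a methionine aminopeptidase, a cytidine deaminase and a subunit of the Ras palmitoyltransferase, had R peaks from 626225 to 627715 in A (rank 190 of 198) and from 626295 to 628101 in B (rank 204 of 209). WT R C had a peak there too, from 626744 to 628313 (rank 62 of 137), and no HU list had any. It was the only one of the 55 regions merged over the 12 lists that all 3 R lists held. The stretch from 823411 to 823812, which overlaps no gene, joined an A peak over CIS1 (820702 to 823812, rank 79) to a B peak over KAP95 (823411 to 825196, rank 194). HU peaks lay inside that R peak of A in mec1 B (820971 to 822992, rank 65 of 151) and mec1 Control (821300 to 822450, rank 230 of 265). At IMD3, CNA1, TSR2 and ECM30 the R peaks ran from 1003533 to 1010596 in A (rank 57) and from 1003893 to 1013531 in B (rank 174), and HU peaks lay at the same place in mec1 A (1005099 to 1010443, rank 32), mec1 Control (1006498 to 1008790, rank 241) and, further right, WT C (1010957 to 1012835, rank 45 of 103). CNA1 encodes calcineurin A and IMD3 an IMP dehydrogenase.

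The overlap of HU and R differed between the experiments on this chromosome. In mec1 A, 6 of 9 HU peaks were overlapped by an R peak, with 65.1% (71 of 109) in the rest of the interior. In mec1 B it was 3 of 11 (27.3%), with 42.5% in the rest, and those 3 were YCT1, GAL2 and the left edge of the rDNA. Right of the rDNA the counts were 3 of 4 in A and 0 of 4 in B. In WT C, 0 of 10 HU peaks were overlapped by an R peak, with 7.78% (7 of 90) in the rest.

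The WT R list had 12 peaks, 8 of which lay in regions that no other list held, a share not counted for the other chromosomes. The 5 of highest score were at OSW2 and SPT8 (249155 to 251670, rank 25 of 137), at SPT8 and ERG3 (252381 to 254032, rank 35), at SLS1 and RRN5 (422883 to 425139, rank 39), at PUT1 (425671 to 427324, rank 45) and at CDD1 and ERF2. SPT8 encodes a subunit of the SAGA coactivator and RRN5 a subunit of the upstream activation factor of RNA polymerase I. The pair at SPT8 and the pair at RRN5 each lay less than 1000 bp apart. Of the 12 peaks, 4 were overlapped by a mec1 R peak (33.3%, with 21.6% in the rest of the interior) and 0 by a mec1 HU peak (18.1% in the rest). A WT HU C peak overlapped 0 of the 12, with 6.03% in the rest. Low overlap of WT R with each of these is thus not particular to chromosome XII. At RRN5 the mec1 R B peak, from 421117 to 426219, also had the highest score of its list, equal for 10 peaks. The WT R peaks were narrow, with a median of 1495 bp against 3795.5 bp in mec1 R A and 4083 bp in mec1 R B. In the rest of the interior the medians were 1740, 4213 and 4495.5 bp, so this is not particular to chromosome XII.

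Merged over the 12 lists from cells, the peaks formed 55 regions, 25 left of the rDNA, 1 in it and 29 right of it. Of these, 28 were in mec1 lists only, 9 in WT lists only (8 of them in WT R alone) and 18 in lists of both strains. These were 50.9%, 16.4% and 32.7% of the regions, near the 58.1%, 13.7% and 28.1% of the 583 regions over the interior of all chromosomes. The mec1 strain has 7 of the lists and WT 5, and the mec1 lists are the longer at HU. Of the 55, 18 were in 1 list and 27 in 1 library. The 2 regions in the most lists, 8 each, were at CBF5, which encodes the pseudouridine synthase of box H/ACA RNPs, and at YNCL0033C. At CBF5 the lists came from 4 libraries. The mec1 Control peak from 503695 to 507761 (rank 106 of 265) covered TAG1, IDP2 and CBF5, and the WT Control peak from 507206 to 512378 (rank 5 of 43) covered CBF5, RFX1 and YLR177W. RFX1 encodes a repressor of DNA damage genes that include those for ribonucleotide reductase. In mec1 R B a single peak of 11369 bp (499378 to 510746, rank 14 of 209) spanned RPS31 to RFX1. The WT R peak of this region, 500407 to 501481, lay apart from CBF5.

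The next 4 by number of lists, 7 each, were YCT1, the tRNA gene YNCL0001W, GAL2 and ECM38. At YNCL0001W the peaks were in mec1 B (92003 to 96015, rank 59 of 151), mec1 Control (92333 to 95015, rank 89 of 265) and WT Control (92640 to 94345, rank 22 of 43), plus the lists over mock and G1. ECM38 encodes a gamma-glutamyltransferase. Peaks there were in WT C (727267 to 731866, rank 24 of 103), mec1 Control (727748 to 730830, rank 210 of 265) and mec1 R B (724782 to 731800, rank 115 of 209), and all 3 also covered EXG1, a cell wall glucanase gene. BUR2, SMC6 and TSR2 with ECM30 were in 6 lists each and AFB1 in 5. YCT1, GAL2 and TSR2 with ECM30 were seen in 5 libraries, the most of any region. In YCT1 and GAL2 all 5 were mec1, and in the merged region at TSR2 with ECM30 4 were mec1 and 1 WT. That WT C peak (1010957 to 1012835) lay outside the stretch that the other 5 lists shared (1006498 to 1008790) and did not reach TSR2.

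**Figure D4:**
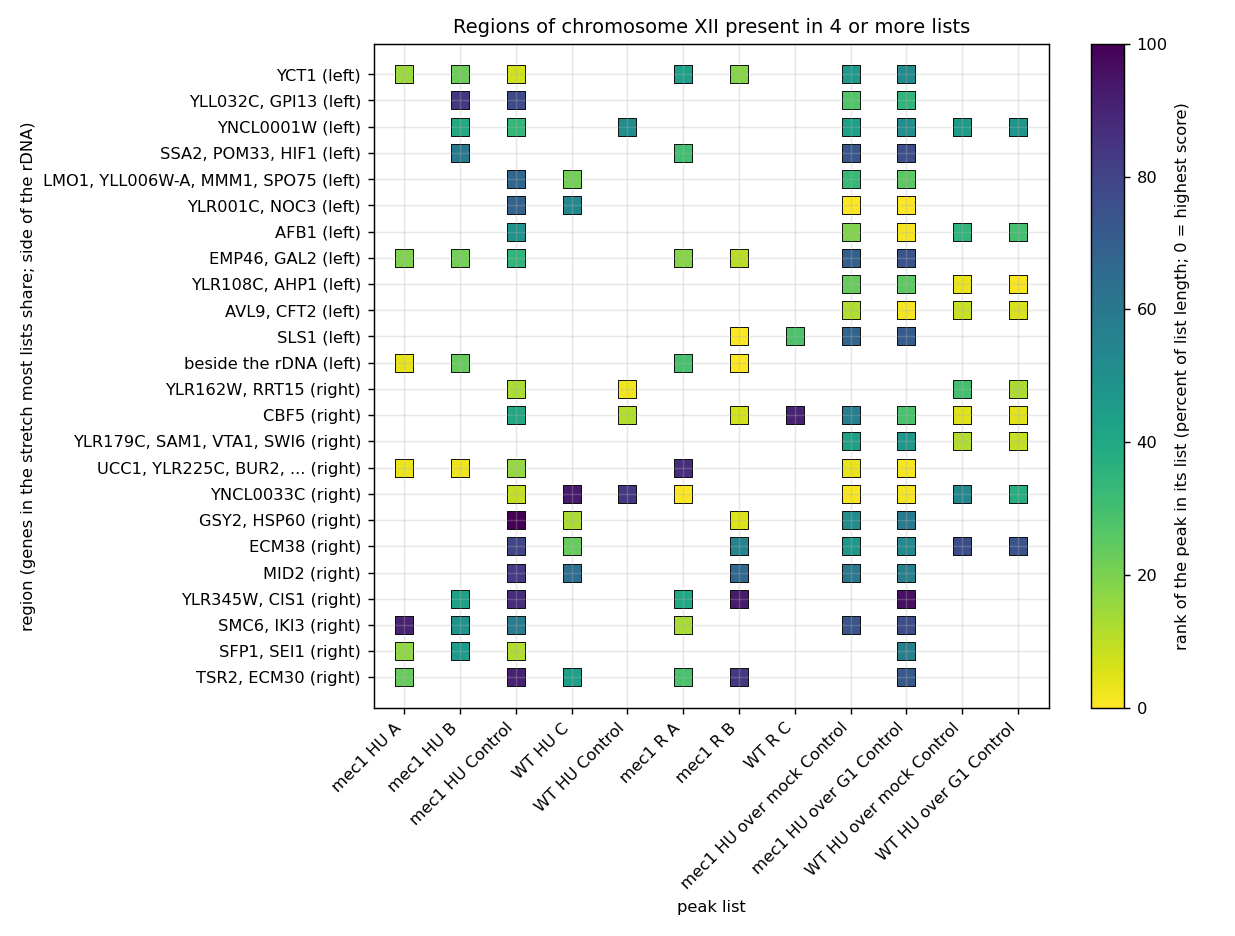
Regions of the chromosome XII interior present in 4 or more of the 12 lists, in chromosome order from top to bottom. A square marks a list with a peak in the region and its colour gives the rank of the best such peak as a percent of the list length, with yellow for the highest scores. YCT1, GAL2, BUR2, SMC6 and SFP1 have squares in all 3 mec1 HU lists and none in the WT HU lists.

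Genes grouped by function were counted beside all genes of the interior. Of the 506 protein-coding genes, 70 were overlapped in any mec1 HU list, 33 in any WT HU list, 82 in any mec1 R list and 19 in the WT R list. Of 11 genes of the cell cycle and replication, the counts were 4, 2, 6 and 0. In mec1 HU these were BUR2, SMC6, SIC1 and CDC25, the last a Ras exchange factor gene. In WT HU they were CDC42 and ORC3, neither of them in a mec1 HU list called alone, though the mec1 Control lists over mock and G1 had ORC3. Over all protein-coding genes of the interior, 19 were overlapped in both strains by HU lists called alone, which is 27.1% of the 70 in mec1 and 57.6% of the 33 in WT. Over all chromosomes these shares were 19.3% and 42.4%. In mec1 R they included CDC45, which encodes a helicase component, in B. Of 10 genes of repair and chromosome maintenance the counts were 3, 2, 3 and 1. EST1 was in both strains at HU, while TOP3 and SLX4 were in mec1 Control and RFX1 in WT Control.

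Of 11 transporter genes, 2 were overlapped in mec1 HU (YCT1 and GAL2), 0 in WT HU, 3 in mec1 R with CTR3 added and 1 in WT R (THI7). Of 18 ribosomal protein genes, 0 were overlapped in mec1 HU, 1 in WT HU (RPS25B, in C), 1 in mec1 R (RPS31, in B) and 0 in WT R. Among 5 genes of ribosome synthesis the mec1 R count was 3, which were RRN5, UTP13 and IFH1, all in B, the WT R count was 1 (RRN5), and the HU counts were 0. UTP13 encodes a subunit of the small subunit processome and IFH1 a coactivator of ribosomal protein genes. Of 10 genes listed for carbon metabolism, among them the heat shock disaggregase gene HSP104, 2 were overlapped in mec1 HU (IDP2 and HSP104), 1 in WT HU (GSY2), 3 in mec1 R and 0 in WT R. Of 9 cell wall genes the counts were 1, 1, 2 and 1, with EXG1 in both strains at HU. Among the 8 listed genes beside the rDNA, which do not include YLR162W and RRT15, RNH203 was the 1 overlapped, in mec1 A.

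Of the 21 tRNA genes, 4 were overlapped in mec1 HU and 4 in WT HU, 3 in mec1 R and 2 in WT R. A tRNA gene lay under 18.0% ± 4.30 of the chromosome XII interior peaks in mec1 HU (SD, n = 3) and under 40.0% ± 14.1 in WT HU (n = 2). In the rest of the interior the shares were 16.3% ± 5.16 and 21.0% ± 17.5. The 2 WT lists went opposite ways, with 30% on chromosome XII and 33.3% in the rest in C, and 50% and 8.57% in Control. Peak midpoints lay within a gene for 59.4% ± 7.60 of mec1 HU peaks and 50% of the peaks of each WT HU list, with 61.3% and 57.3% in the rest. The WT shares rest on 10 and 4 peaks.

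Long stretches held no peak in any of the 12 lists. The longest ran from 825197 to 885829, a span of 60.633 kb with 34 protein-coding genes just left of SMC6. Further ones on the right ran from 523645 to 580959 (57.315 kb, 32 genes) and from 949466 to 1003532 (54.067 kb, 18 genes). On the left the longest ran from 165073 to 213559 (48.487 kb, 27 genes) and from 292537 to 340284 (47.748 kb, 16 genes). The span from 523645 ends at the UTP13 peak of mec1 R B, and that from 949466 at IMD3. Stretches without a peak were not measured on the other chromosomes and their lengths were not tested, so these may not be particular to chromosome XII.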

How the data were processed

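The deposited files give a position and a score per peak. The score is the authors' value from the peak caller, and its scale is not stated in the deposited files. Per the submitters' processing notes, the tools were Bowtie2, BWA 0.6.2 and MACS 1.4.1 for experiments A, B and C, and BWA for the Control samples, all on the sacCer3 build. The labels of the Control samples name MACS without a version, and the settings and filters used are not given in the sources here.

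Deposited starts were raised by 1 to give 1-based positions, and the 2-digit chromosome names of 1 list were translated. Genes came from the RefSeq R64 table, in which 6431 genes lie on the 16 chromosomes. Each chromosome's extent was its furthest gene or peak end. Peaks that overlap by 1 bp or more were merged into regions, and the genes named are those under the stretch that most lists cover. Regions were named if present in all mec1 HU, both WT HU or both mec1 R lists, if they touched or neighboured the rDNA, if among the 10 in most lists, or if among the 5 peaks of highest score in a list with no replicate, and genes of the 8 fixed gene lists were also named. The members and lists were chosen with earlier results of these data known. Wide peaks and the widest, some neighbouring and list-specific genes were named after their values were seen.

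Densities and shares were compared by exact permutation over lists, with Benjamini-Hochberg adjustment over 6 tests at a threshold of 0.05. The strain difference in right minus left density and the comparison of chromosome XII with the other chromosomes were added after the data had been seen. The merging and the tests were tested on simulated data. Alternatives covered the outer limit, the rDNA limits, a score minimum of 100, covered bases, stricter and looser overlap, each list left out, and the pairing of HU with R. Computation used Python 3.11.15, numpy 2.4.6, scipy 1.17.1 and matplotlib 3.10.9. No sequence is printed, as no genome was used here.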

Additional observations from a re-analysis of the deposited data

Results flagged for a closer look

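Right minus left peak density ran opposite ways in the strains at HU, below 0 in all 3 mec1 lists and above 0 in both WT lists called alone. The difference was -0.904 peaks per 100 kb, and the exact permutation p of 0.2 is the smallest that 3 lists against 2 can give. The WT Control library called over mock or over G1 gave -0.103 in place of 0.296.

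The share of peaks right of the rDNA, R minus HU within an experiment, also ran opposite ways, at 21.4 and 18.8 percentage points in mec1 A and B and -36.1 in WT C. The mean mec1 change exceeded the WT change by 56.2 percentage points. This difference was not tested, as WT has 1 experiment with recovery.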

How the results depend on the processing

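Over 11 results and 114 alternatives, 101 kept direction, side of the threshold or size. The smallest possible p was 0.2 for 3 lists against 2 and 0.0625 for 5 lists. For the 6 tested results the side of the threshold was therefore fixed in advance, and only direction was judged, not size. Right minus left density over the 5 HU lists (-0.0103) turned to 0.0437 with a score of at least 100, to 0.0104 with the rDNA widened by 3 kb (an alternative added after the data had been seen), and ranged from -0.205 to 0.159 with each list left out, turning to 0.0429 without mec1 A and 0.0386 without mec1 Control. Chromosome XII density minus the rest (0.0291) turned to -0.0236 with the outer 10 kb left out and ranged from -0.0335 to 0.0821 with each list left out. The strain difference right of the rDNA ranged from -0.176 to 0.645 with each list left out and was -0.0586 without WT Control. The strain difference in the share of peaks on chromosome XII (-1.34) ranged from -2.12 to -0.765 with each list left out and was -3.57 with a score of at least 100. The left density difference lost its full separation by bases covered (p = 0.4, exact permutation). Regions in all mec1 HU lists numbered 6 to 8 with 1 list left out, where fewer lists have to share a region. With a score of at least 100, regions in both WT HU lists fell to 0 and in both mec1 R lists to 3. With the replicate block, pairing HU and R of experiments A and B, the right share in mec1 R minus mec1 HU was 20.1 percentage points, against 16.9 unpaired and 10.6 to 23.2 with each list left out; whether the numbers pair cultures beyond the shared experiment was not tested. HU lists with a peak in the rDNA numbered 5 in place of 3 with the rDNA widened by 3 kb, which takes in the right edge peak. No other cause was tested. Read depth is unknown, WT HU lists called alone hold 4 and 10 peaks of the chromosome, and 3 lists against 2 cannot reach the 0.05 threshold.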
